A study of Mus musculus with 19 samples.

Results

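The vacuolar proton pump genes described here are Atp6v0c, its pseudogene copy Atp6v0c-ps2 and 8 other subunit genes of the same pump, taken from the deposited count table by their symbols. They are 10 of 35976 rows of the table, and all 10 were among the 16463 rows that passed the filter on low counts. Atp6v0c and Atp6v0c-ps2 were chosen by their read counts in these same libraries, which earlier results had shown to differ between genotypes. Their levels and fold changes are therefore given as a description, with no test. The other 8 genes, Atp6v0a1, Atp6v0b, Atp6v0d1, Atp6v1a, Atp6v1b2, Atp6v1h, Atp6ap1 and Atp6ap2, were taken for comparison and were tested.

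RNA was sequenced from the livers of 19 mice, 1 library per mouse, in 3 genotypes of Pkd1, the gene of polycystin-1. The groups were WT + AAV-Cre (n = 7), Het + AAV-Cre (n = 6) and Homo + AAV-Cre (n = 6). All of them received an adeno-associated virus carrying Cre recombinase, and all were kept for 3 months on a Western diet with carbon tetrachloride, a model of non-alcoholic steatohepatitis. The mice are described as littermates. Age, sex, the promoter that drives Cre, the part of Pkd1 that is deleted and the share of cells that Cre reached are not stated by the labels.

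The vacuolar proton pump (V-ATPase) acidifies lysosomes, endosomes and secretory vesicles. Its cytosolic V1 sector hydrolyses ATP and turns a ring of proteolipid subunits in the membrane-bound V0 sector, and each turn carries protons across the membrane. Atp6v0c encodes the c subunit, which makes up most of that ring. At the lysosome surface the pump also takes part, with the Ragulator complex and the Rag GTPases, in amino acid sensing by mTORC1, and in the liver lysosomal acid drives the breakdown of proteins, lipids and organelles.

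The libraries held between 25.8 and 42.1 mega-counts (M). Levels are given in CPM, read counts per mega-count of TMM library size. Pkd1 itself averaged 405 ± 38.6 CPM over WT livers (SD, n = 7), 390 ± 46.2 over Het and 357 ± 19.7 over Homo livers (n = 6 each), and the groups overlapped (Homo against WT log2 fold change -0.18 ± 0.08, SE, edgeR adjusted p = 0.315). A count over the whole gene does not check the labels where the deleted part is not known. The 8 hepatocyte markers summed to 24440 to 30440 CPM over all mice and none of them was at 0. The 7 bile duct markers summed to 57.5 to 158 CPM in WT, 60.8 to 118 in Het and 120 to 163 in Homo. The 10 macrophage markers summed to 201 to 275, 211 to 242 and 193 to 268 CPM. In Homo against WT, edgeR called 3 of 6 tested bile duct markers, Krt7, Krt19 and Tspan8, all higher in Homo. DESeq2 called 4 of them, with Epcam added, and limma-voom 2, without Tspan8 (adjusted p = 0.0621). The shares of all tested genes called were 0.480% by edgeR, 1.85% by DESeq2 and 0.553% by limma-voom. Sox9, also on that list, was at -0.12 ± 0.23 (SE, edgeR adjusted p = 0.874). edgeR called 0 of the 8 hepatocyte and 0 of the 10 macrophage markers, as did DESeq2 and limma-voom. In each of those lists 1 gene had an unadjusted p under 0.05, beside 12.9% of all tested genes. In these bulk samples, fewer cells of a type and less RNA per cell cannot be told apart. Each title ends in a mouse number whose meaning the labels do not give, and mice 1 to 3 were all WT. All p-values measure the spread between these mice.

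Atp6v0c lies on the minus strand at chr17:24163866-24169702 (GRCm38), 380 kb from the start of Pkd1 on the same chromosome. Atp6v0c-ps2 is annotated as a processed pseudogene of 465 bases with no intron, on the plus strand at chr6:37806086-37806550. Over the 465 coding bases of Atp6v0c without its stop codon, 464 were identical in the pseudogene and 1 differed, an identity of 99.8%. The difference is T111C, counted from 1 at the first base of the start codon, with the base of Atp6v0c first. It lies in the second of 3 coding exons, at position 24164851 of chromosome 17 and position 37806196 of chromosome 6. The stretch around it, coding bases 61 to 161, is shown because it holds the single base by which reads of the coding sequence can be told apart. The capital marks that base, and each sequence reads 5′ to 3′ on its gene's strand (GENCODE transcripts of GRCm38), from chr17:24164801-24169224, minus strand, with an intron removed, and from chr6:37806146-37806246, plus strand.
Atp6v0c: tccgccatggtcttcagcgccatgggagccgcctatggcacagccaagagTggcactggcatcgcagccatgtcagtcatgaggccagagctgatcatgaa
Atp6v0c-ps2: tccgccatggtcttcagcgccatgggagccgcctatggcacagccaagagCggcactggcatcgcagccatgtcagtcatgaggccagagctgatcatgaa

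Of the 416 windows of 50 bases in this coding sequence, 50 hold the differing base and 366 are letter for letter the same in both copies. Measured over all annotated transcripts, 375 of the 416 windows of Atp6v0c-ps2 (90.1%) also occur in transcripts of another gene. For Atp6v0c that held for 368 of 3419 windows (10.8%), since most of its transcripts lie outside the coding sequence. A further copy, Atp6v0c-ps1 on chromosome 7, differs at 11 bases and 2 gap positions (97.2% identity) and is not analysed here. Neither the read length nor the handling of reads with several matches is stated. The values of both rows are therefore uncertain as measures of either copy alone. RefSeq gives Atp6v0c-ps2 as 1133 bases (chr6:37805975-37807107), and the bases beyond the 465 were not compared.

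**Figure D1:**
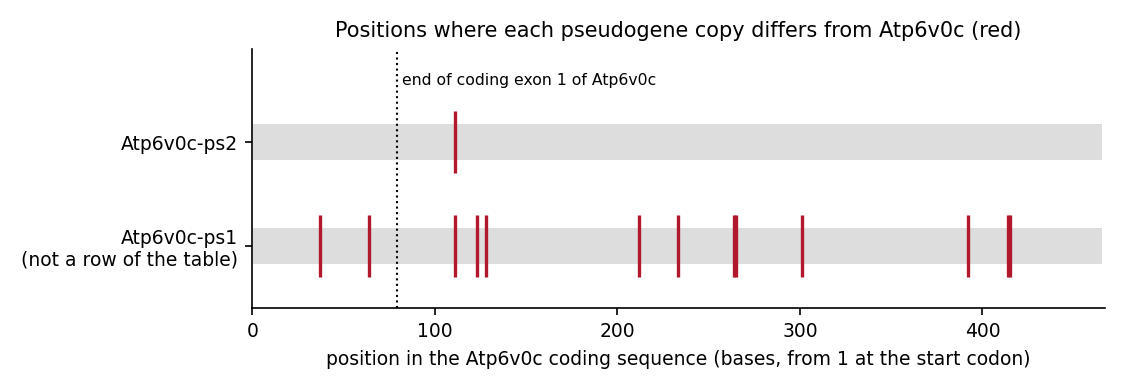
Positions along the 465 coding bases of Atp6v0c (x axis, bases from the start codon) at which each pseudogene copy differs from it. Red lines mark differing positions and the dotted line the end of coding exon 1. Atp6v0c-ps2 carries 1 line, at base 111, while Atp6v0c-ps1 carries lines along its length.

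Atp6v0c was highest in WT, lower in Het and lowest in Homo. Its lowest, median and highest levels were 9.03, 9.96 and 11.5 CPM in the 7 WT livers. They were 5.52, 7.35 and 8.20 CPM in the 6 Het livers and 4.24, 4.51 and 5.05 CPM in the 6 Homo livers. No Homo liver reached the lowest Het liver and no Het liver reached the lowest WT liver. The raw counts behind these levels were 308 to 458 reads per WT library, 197 to 285 per Het library and 143 to 177 per Homo library.

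Group means of Atp6v0c (± SD) were 10.2 ± 0.943 CPM for the 7 WT livers, 7.25 ± 0.926 for the 6 Het livers and 4.57 ± 0.361 for the 6 Homo livers. Het was thus at 71.1% and Homo at 44.8% of the WT mean, and the Het mean lay close to the midpoint of WT and Homo, 7.38 CPM. The fitted log2 fold changes were -1.16 ± 0.10 for Homo against WT, -0.49 ± 0.09 for Het against WT and -0.67 ± 0.10 for Homo against Het (SE). Of all tested genes, 0.383% had every Homo library below every WT library, 0.0790% had every Het library below every WT library and 0.176% had every Homo library below every Het library. Homo against WT and Het against WT share the WT libraries. Atp6v0c was chosen for these differences, so the shares give their background and support nothing further.

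Atp6v0c-ps2 ran the other way. It had 2, 3, 1, 5, 3, 0 and 6 reads in the 7 WT libraries, 20 in all. The 6 Het libraries held 51, 35, 32, 53, 41 and 36 reads, and the 6 Homo libraries held 49, 76, 71, 90, 67 and 57. The pseudogene row was thus near 0 in every WT liver and counted in every Het and Homo liver, with Het and Homo overlapping.

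As CPM (mean ± SD), Atp6v0c-ps2 averaged 0.0802 ± 0.0622 over the 7 WT livers, 1.28 ± 0.273 over the 6 Het livers and 1.94 ± 0.482 over the 6 Homo livers. The Homo mean was 24.2 times and the Het mean 15.9 times the WT mean, which rests on 20 reads, and the Homo mean was 1.52 times the Het mean. Fitted log2 fold changes were 4.53 ± 0.38, 3.93 ± 0.38 and 0.60 ± 0.31 (SE) for Homo against WT, Het against WT and Homo against Het. The Het mean lay above the midpoint of WT and Homo, 1.01 CPM. Of all tested genes, 0.528% had every Homo library above every WT library, 0.115% every Het library above every WT library and 0.510% every Homo library above every Het library.

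**Figure D2:**
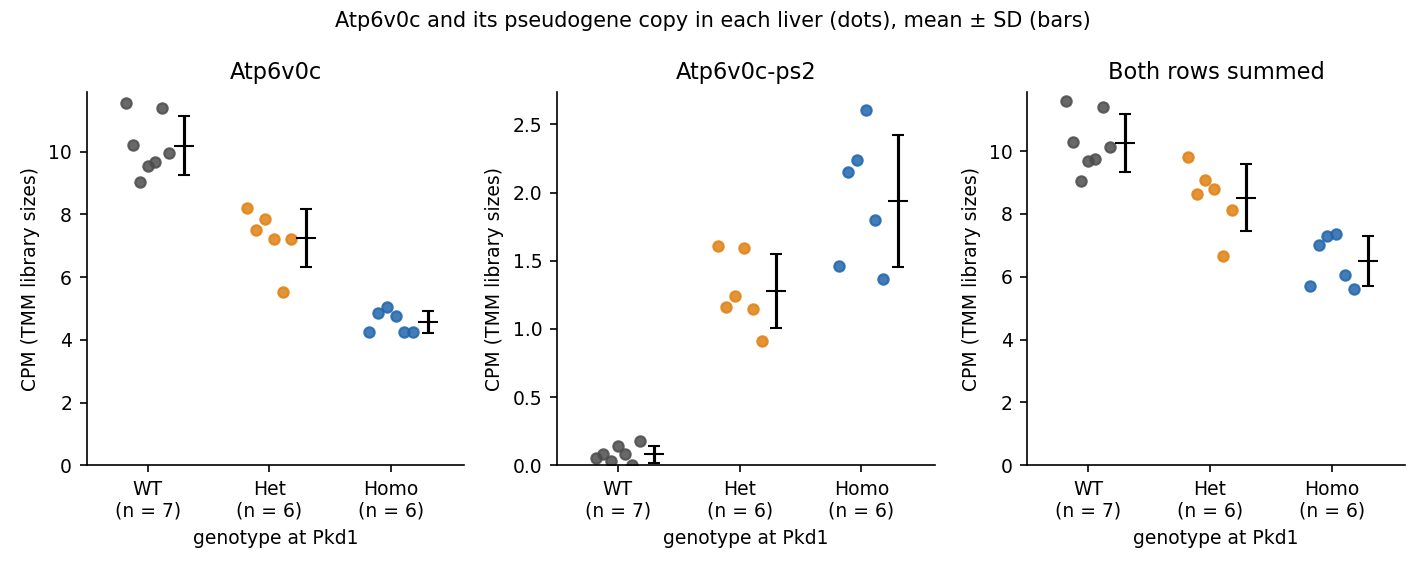
Level in CPM (y axes, from 0, each panel on its own scale) of Atp6v0c, Atp6v0c-ps2 and their sum by genotype (x axes). Dots are livers and bars the mean ± SD. Atp6v0c steps down from WT (9.03 to 11.5) through Het to Homo (4.24 to 5.05) without overlap, while Atp6v0c-ps2 sits at 0.179 or less in WT and at 0.912 or more in the other livers.

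Added together, the rows of both copies still differed between genotypes, by less than Atp6v0c alone. The summed level was 10.3 ± 0.920 CPM (mean ± SD) over the 7 WT livers (9.06 to 11.6), 8.52 ± 1.06 over the 6 Het livers (6.67 to 9.81) and 6.50 ± 0.804 over the 6 Homo livers (5.60 to 7.36). All Homo livers lay below all WT livers, and Het overlapped both. The log2 fold changes of the sum were -0.66 ± 0.10 for Homo against WT, -0.27 ± 0.10 for Het against WT and -0.39 ± 0.10 for Homo against Het (SE).

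From WT to Homo the mean of Atp6v0c differed by -5.62 CPM and that of Atp6v0c-ps2 by 1.86 CPM, which is 33.0% of the former in size. From WT to Het the differences were -2.94 and 1.20 CPM, or 40.7%. The sum was left at 83.0% of WT in Het and 63.3% in Homo. The part that the assignment of reads between the copies plays in either row was not tested.

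The share of the summed reads counted to the pseudogene row separated all 3 genotypes. It comes from rows chosen for their differences between genotypes, so this separation is a description with no test. The share (mean ± SD) was 0.799% ± 0.627 over the 7 WT livers (0 to 1.77%), 15.0% ± 2.65 over the 6 Het livers (11.2 to 18.1%) and 29.4% ± 4.02 over the 6 Homo livers (24.4 to 35.4%). In the WT liver with 0 of 372 reads the Wilson 95% interval reached 1.02%. The Het liver with the highest share, 53 of 293 reads, had an interval of 14.1 to 22.9%, and the Homo liver with the lowest, 57 of 234, one of 19.3 to 30.2%. Those intervals overlap although the values do not, and they cover counting error only.

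**Figure D3:**
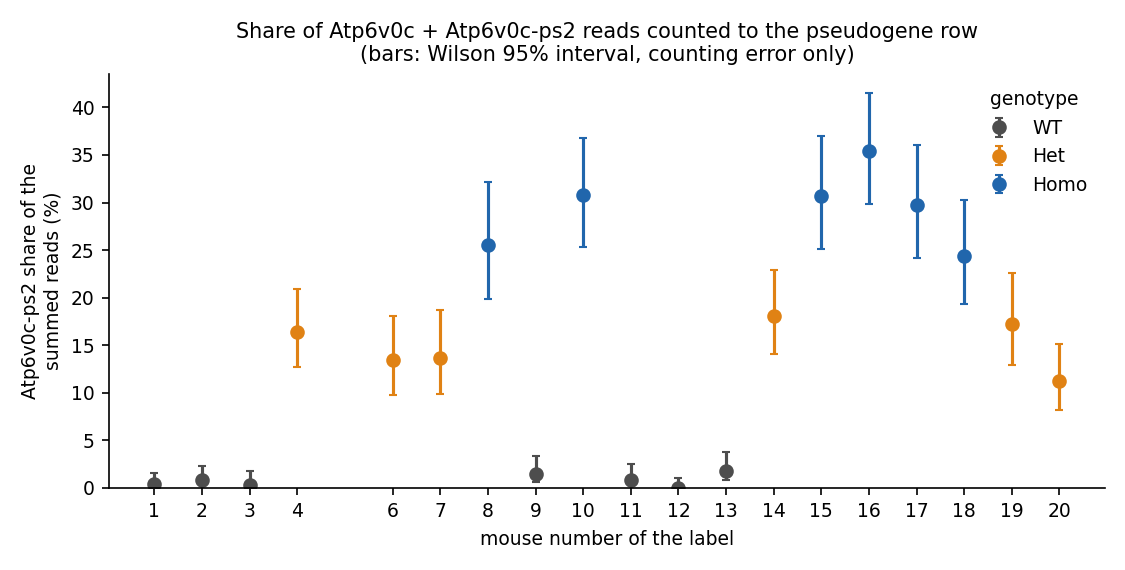
Share of the summed Atp6v0c and Atp6v0c-ps2 reads counted to Atp6v0c-ps2 (y axis, percent, from 0) in each liver, placed by the mouse number of its label (x axis) and coloured by genotype. Bars are Wilson 95% intervals. WT livers lie at 0 to 1.77%, Het at 11.2 to 18.1% and Homo at 24.4 to 35.4%. No WT liver has a mouse number above 13 and no Homo liver one below 8.

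Genotype and mouse number are partly confounded, and each of the following ranges of mouse numbers holds just the genotypes compared. Within mice 8 to 13 the log2 fold changes of Homo against WT were -1.16 for Atp6v0c and 4.11 for Atp6v0c-ps2. The Homo livers there were only mice 8 and 10, and the WT livers mice 9, 11, 12 and 13. Within mice 1 to 7 Het against WT gave -0.39 and 4.54, from WT mice 1, 2 and 3 and Het mice 4, 6 and 7. Within mice 14 to 20 Homo against Het gave -0.54 and 0.72, from Homo mice 15, 16, 17 and 18 and Het mice 14, 19 and 20. With so few livers in each range, these values are a description. The bile duct marker sum was also higher in Homo than in Het in every mouse (120 to 163 against 60.8 to 118 CPM), and its part in these levels was not tested. Most of that sum is Spp1, at 126 ± 12.7 CPM in Homo and 72.6 ± 20.2 in Het (SD, n = 6 each), which overlapped between them and was not called (edgeR adjusted p = 0.323). Of the 6 tested bile duct markers, edgeR called 4 in Homo against Het, all higher in Homo, beside 0.182% of all tested genes. For 3 of the 6, every Homo library lay above every Het library, beside 0.510% of all tested genes.

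Within a genotype, among the 6 Homo livers the log2 CPM of the copies gave Pearson's r = 0.83 and Spearman's rho = 0.77, and among the 6 Het livers 0.34 and 0.54. Without the 2 livers farthest from the median Atp6v0c, r was 0.92 in Homo and 0.03 in Het. Both rows were chosen from these same counts and share each library's depth, so these values are a description with no test. The 0 to 6 reads per WT library were too few for this.

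The 8 other members were at nearly the same level in all 3 genotypes, and none was called in any comparison. In Homo against WT edgeR called 0 of 8 at an adjusted p under 0.05, against 0.480% of all tested genes, and 1 of 8 had an unadjusted p under 0.05, against 12.9%. In Het against WT the counts were 0 of 8 against 0.0243% adjusted and 0 of 8 against 8.84% unadjusted. In Homo against Het they were 0 of 8 against 0.182% and 0 of 8 against 6.29%. DESeq2 and limma-voom also called 0 of 8 in each comparison. With so few genes called in all, 0 of 8 is close to the background. What bounds these genes is their intervals: all 8 95% intervals of the log2 fold change lay between -0.31 and 0.28 in Homo against WT, between -0.26 and 0.33 in Het against WT, and between -0.37 and 0.21 in Homo against Het. Their median log2 fold changes were -0.03, -0.0024 and -0.04, beside 0.0019, -0.0043 and -0.0012 over all tested genes.

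Among the V0 members, Atp6v0a1 encodes an a subunit, which forms the proton path beside the ring. Its lowest, median and highest levels were 183, 197 and 229 CPM in WT, 163, 188 and 238 in Het and 167, 184 and 199 in Homo. These ranges overlap, and Homo against WT gave -0.15 ± 0.08 (SE, edgeR adjusted p = 0.420). Atp6v0b, the c'' proteolipid that sits in the same ring as the product of Atp6v0c, averaged 17.3 ± 1.52 CPM (SD) over WT livers, 17.6 ± 1.17 over Het and 17.6 ± 1.73 over Homo livers. Its livers ranged from 15.7 to 19.9, from 15.6 to 18.8 and from 15.9 to 20.5 CPM, and Homo against WT was 0.02 ± 0.07 (adjusted p = 0.928). The gene shares 243 exon bases with Gm12841 on the other strand, whose reads cannot be told apart without strand. Atp6v0d1, which joins the ring to the central stalk, ranged from 14.0 to 16.2 CPM in WT, from 13.1 to 16.8 in Het and from 13.5 to 16.3 in Homo, with -0.05 ± 0.07 for Homo against WT (adjusted p = 0.785).

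Among the V1 members, Atp6v1a encodes the catalytic A subunit that hydrolyses ATP. It averaged 40.4 ± 3.29 CPM (SD) over WT livers, 41.1 ± 2.50 over Het and 41.3 ± 4.73 over Homo livers, and its Homo range of 33.7 to 47.9 took in the whole WT range. Homo against WT was 0.03 ± 0.07 (SE, edgeR adjusted p = 0.901). Atp6v1b2 encodes the B subunit, which binds nucleotide without being the main catalytic site. It was at 11.3 ± 1.16, 11.0 ± 1.20 and 11.2 ± 0.805 CPM in the same order, and Homo against WT was -0.01 ± 0.08 (adjusted p = 0.972).

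Atp6v1h encodes the H subunit, which regulates ATP hydrolysis of the assembled pump, and was the member with an unadjusted p under 0.05. Its lowest, median and highest levels were 58.8, 62.2 and 68.3 CPM in WT, 51.5, 58.8 and 64.6 in Het and 48.9, 54.9 and 65.9 in Homo. The ranges overlap, with the Homo and Het medians below that of WT. Homo against WT was -0.16 ± 0.07 (SE, 95% interval -0.31 to -0.01, unadjusted p = 0.0380, edgeR adjusted p = 0.355) and Het against WT -0.11 ± 0.07 (adjusted p = 0.688). Atp6v1h shares 127 exon bases with Rgs20 on the other strand.

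The accessory members are Atp6ap1 and Atp6ap2, membrane proteins that take part in assembly of the pump. Atp6ap2 is also known as the (pro)renin receptor. Atp6ap1 ranged from 22.3 to 28.1 CPM in WT, from 24.1 to 29.7 in Het and from 21.5 to 32.4 in Homo, with 0.15 ± 0.09 for Het against WT (SE, edgeR adjusted p = 0.634) and 0.10 ± 0.09 for Homo against WT (adjusted p = 0.677). Atp6ap2 ranged from 6.49 to 8.16 CPM in WT, from 6.42 to 8.74 in Het and from 5.52 to 8.26 in Homo. Its Homo against Het value, -0.14 ± 0.11 (adjusted p = 0.924), had the smallest p among the 8 genes in that comparison.

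**Figure D4:**
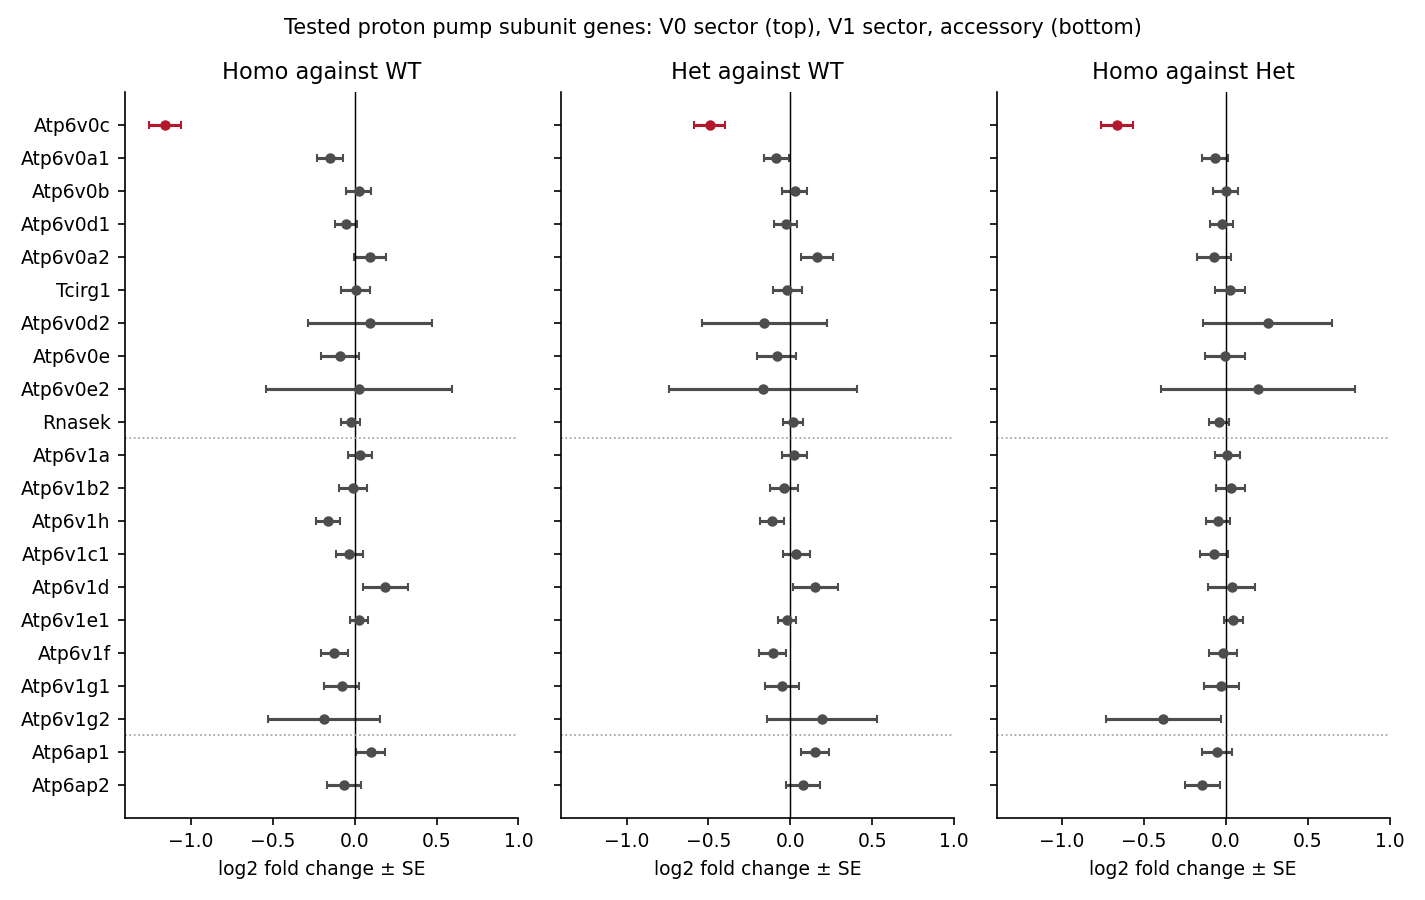
Log2 fold change ± SE (x axes) of the 21 tested subunit genes (y axis; V0 sector, V1 sector and accessory genes divided by dotted lines) in the 3 comparisons. Atp6v0c, in red, lies at -1.16, -0.49 and -0.67, while every other gene in grey lies nearer to 0 and was not called.

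The rest of the pump was described from lists of 27 subunit genes. Without Atp6v0c, 20 of 26 passed the filter. In Homo against WT, Het against WT and Homo against Het edgeR called 0, beside 0.480%, 0.0243% and 0.182% of all tested genes. At an unadjusted p under 0.05 there were 1, 0 and 0, beside 12.9%, 8.84% and 6.29%. DESeq2 and limma-voom called 0 in each comparison, beside 1.85% and 0.553% in Homo against WT. The median log2 fold change of the 20 was -0.02 in each comparison. Beside the members, Tcirg1 (the a3 subunit) was at 38.0, 37.5 and 38.2 CPM in WT, Het and Homo. In the same order Rnasek, an associated V0 protein, was at 27.7, 28.1 and 27.3 CPM. Rnasek shares 599 of its 885 exon bases with Gm21988 on the same strand, and how such reads were counted is not stated. Atp6v1e1, a stalk subunit, was at 20.3, 20.0 and 20.6 CPM. The other peripheral and central V1 genes Atp6v1c1, Atp6v1d, Atp6v1f and Atp6v1g1 ranged from 7.86 to 19.2 CPM over all livers. Atp6v0a2 ranged from 11.1 to 18.5 CPM and Atp6v0e from 3.40 to 5.50. Atp6v1g2 and Atp6v0e2 did not exceed 2.46 CPM. Atp6v0d2, the d isoform known from osteoclasts and macrophages, varied within WT from 2.05 to 9.90 CPM. Those under the filter were Atp6v1b1, Atp6v1c2, Atp6v1e2, Atp6v1g3, Atp6v0a4 and Atp6ap1l, at most 0.456 CPM in any liver.

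Per kb of annotated exon, Atp6v0c was at 3.01 ± 0.279 CPM per kb in WT, 2.14 ± 0.274 in Het and 1.35 ± 0.107 in Homo (SD). In WT the members ran from Atp6v0a1 at 31.0 CPM per kb through Atp6v0d1 at 8.50, Atp6v0b at 8.43, Atp6ap1 at 8.15, Atp6v1a at 6.68 and Atp6v1h at 6.43 to Atp6v0c, then Atp6ap2 at 2.80 and Atp6v1b2 at 2.13. The WT ranges of Atp6v0d1, Atp6v0b and Atp6ap1 overlapped, and so did those of Atp6v1a and Atp6v1h. Those of Atp6v0c and Atp6ap2 also overlapped, as did those of Atp6ap2 and Atp6v1b2. Atp6v0c-ps2, over its 0.465 kb, was at 0.173 ± 0.134 CPM per kb in WT, 2.75 ± 0.588 in Het and 4.17 ± 1.04 in Homo. The order depends on the exon lengths taken from the annotation. Counting basic transcripts only, Atp6v1h stood at 28.8 CPM per kb in WT, Atp6v0b at 17.3, Atp6ap1 at 10.9 and Atp6v0d1 at 9.36, and Atp6v0c stood at 8.10 in WT, 5.76 in Het and 3.63 in Homo. Which copy is higher per kb in Het changes with this choice, and in Homo 3.63 lies inside the pseudogene's range of 2.93 to 5.61, so no order of the copies is read from these values.

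**Figure D5:**
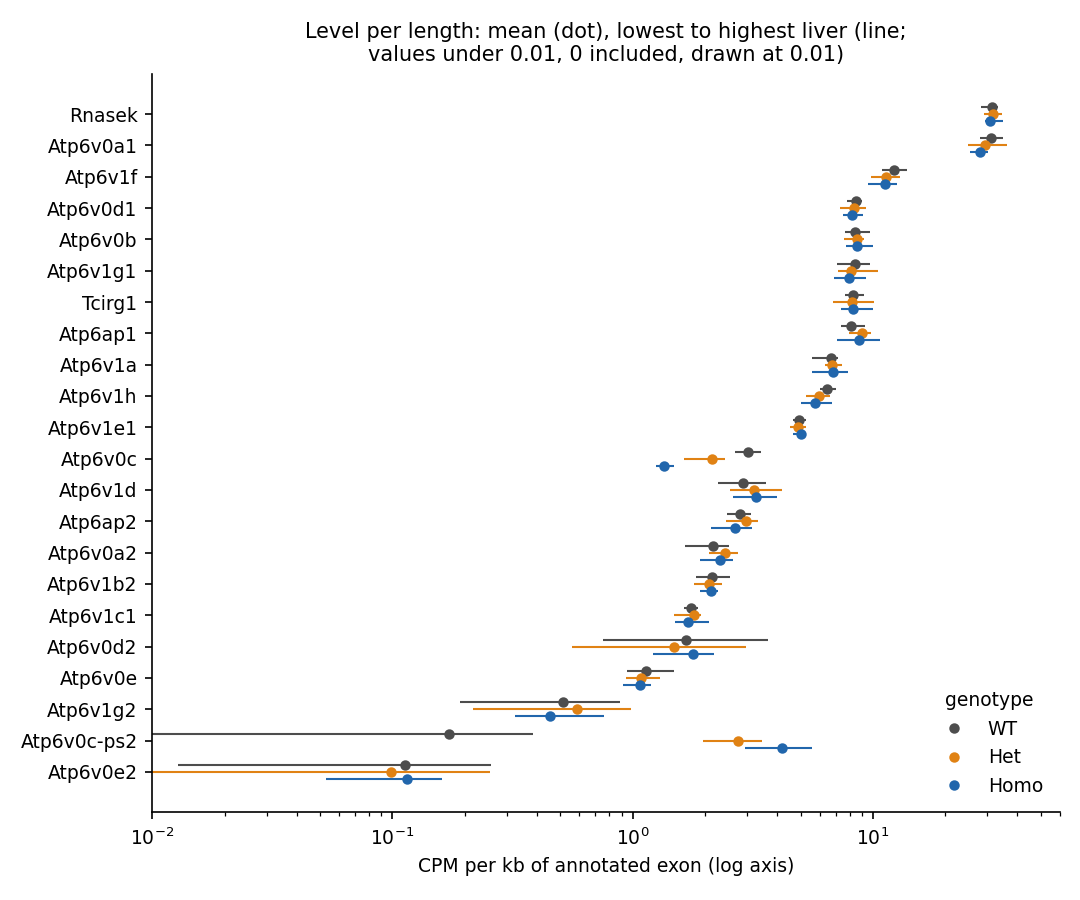
Level in CPM per kb of annotated exon (x axis, log scale) of the tested subunit genes and Atp6v0c-ps2 (y axis, ordered by the WT mean). Dots are genotype means and lines run from the lowest to the highest liver. The genotypes lie apart for Atp6v0c (WT 3.01, Homo 1.35) and for WT against the others in Atp6v0c-ps2 (WT 0.173, Homo 4.17).

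The genes whose log2 CPM followed Atp6v0c most closely over the 19 livers, among 13589 genes, all lie on chromosome 17. They were 1600002H07Rik (Pearson's r = 0.91), Tmem8 (0.90), Rps2 (0.89), Rnps1 (0.88) and Gtf2h4 (0.84). The share of the 13589 genes that lie on chromosome 17 was not counted, so no background stands beside this. The lowest r were those of Abca3 on chromosome 17 (-0.86), Atp6v0c-ps2 (-0.83) and Lcor on chromosome 19 (-0.82). Atp6v0c-ps2 ran most closely with Abca3 (0.94) and D330041H03Rik (0.88), both on chromosome 17, then Tctn1 (0.84), Cdh13 (0.84) and Zfp809 (0.82). Much of this follows the genotype means. The next values pool the 19 livers after each genotype's mean was removed. With Atp6v0c, r was then -0.32 for 1600002H07Rik, 0.46 for Tmem8, 0.224 for Rps2, 0.044 for Rnps1 and 0.355 for Gtf2h4. For the genes with the lowest r it was 0.60 for Abca3, 0.03 for Atp6v0c-ps2 and -0.493 for Lcor. That 0.03 takes in the WT livers, with 0 to 6 reads of Atp6v0c-ps2, which the values for Homo and Het alone leave out. With Atp6v0c-ps2, r was then -0.24 for Abca3, -0.43 for D330041H03Rik, 0.60 for Tctn1, 0.33 for Cdh13 and 0.48 for Zfp809. Among the comparison members, r with Atp6v0c over the 19 livers, with genotype means kept, ran from -0.22 for Atp6ap1 to 0.53 for Atp6v0a1. None of those 8 genes lies on chromosome 17. Other subunit genes do: Atp6v0e, Atp6v1g2 and, under the filter, Atp6v1e2. In Homo against WT, Atp6v0e was at -0.09 ± 0.12 and Atp6v1g2 at -0.19 ± 0.34 (SE, edgeR adjusted p = 0.79 and 0.86).

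Factors that assemble the pump or bind it (12 tested genes) had 0 called by edgeR in Homo against WT, 2 at an unadjusted p under 0.05 (beside 12.9% of all tested genes), 2 by DESeq2 (beside 1.85%) and 0 by limma-voom. The unadjusted count is close to that background. Tbc1d24, a TLDc-domain protein whose gene lies 5.7 kb from Atp6v0c, ranged from 77.5 to 91.3 CPM in WT, from 66.4 to 78.7 in Het and from 53.9 to 82.0 in Homo. Homo against WT gave -0.34 ± 0.08 (SE, edgeR adjusted p = 0.0676, DESeq2 adjusted p = 0.00631). Wdr7, a partner of the pump in acidification, gave 0.24 ± 0.07 (edgeR adjusted p = 0.147, DESeq2 adjusted p = 0.0412). Dmxl2, the rabconnectin scaffold, gave 0.16 ± 0.10 (edgeR adjusted p = 0.515).

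Among genes of the lysosome itself, 40 that encode lysosomal hydrolases and membrane proteins were tested. In Homo against WT 0 of 40 were called by edgeR, DESeq2 or limma-voom, beside 0.480%, 1.85% and 0.553% of all tested genes. An unadjusted p under 0.05 was found for 2 of 40, both lower, beside 12.9% of all tested genes in either direction. The median log2 fold change of the 40 was 0.0015, beside 0.0019 over all tested genes. The 3 hydrolases with the smallest p were the proteases Ctsl at -0.29 ± 0.09 (SE, edgeR adjusted p = 0.202) and Ctsb at -0.11 ± 0.05 (adjusted p = 0.410), and the glucuronidase Gusb at -0.20 ± 0.12 (adjusted p = 0.487). Slc36a1, a proton-coupled amino acid transporter, was at -0.20 ± 0.09 (adjusted p = 0.352). Of 16 tested Ragulator, Rag and TFEB family genes 0 were called by edgeR, DESeq2 or limma-voom in Homo against WT, beside those same shares. An unadjusted p under 0.05 was found for 1 of 16, beside 12.9% of all tested genes. It was Flcn, a regulator of the Rag GTPases, at -0.34 ± 0.14 (edgeR adjusted p = 0.320).

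TFEB, a transcription factor of lysosomal genes, binds sites built on CACGTG. This 6-base run, which reads the same on both strands, was searched in RefSeq promoters of GRCm38.p6, from 250 bases before to 50 after each start. It was found in 3 of 9 promoters of 7 members (33.3%), those of Atp6v0b, Atp6v0d1 and Atp6v1a, against 7.2% of 32851 promoters. Over all subunit genes with a RefSeq promoter it was found in 4 of 24 (16.7%). These 24 include the 9 promoters of the members, which hold 3 of the 4. None of the 3 promoters of Atp6v0c held it, which says only that these letters are not in those windows.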

How the data were processed

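The deposited file gives the authors' raw read counts by gene symbol, whole numbers with no normalization. The submitters' processing notes name STAR 2.7.2b, featureCounts 1.6.4 and GRCm38. Library preparation from total RNA with a NuGen Ovation mouse kit is given per the labels' protocols. No source states the annotation, read length, strand setting or handling of reads with several matches. Of the rows, 27 carry a date in place of a symbol. They stayed in the library totals, at most 0.174% of one.

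Counts were analysed in R 4.3.3 with edgeR 4.0.16 (filterByExpr by genotype, TMM, quasi-likelihood F test, all 19 libraries in 1 fit, 3 comparisons), two-sided, with Benjamini-Hochberg adjustment over 16463 genes and a threshold of 0.05. Every adjusted p of a gene comes from this test unless another tool is named. CPM use TMM library sizes, and log2 CPM a prior count of 2. SE is the log2 fold change over the root of F. Alternatives were DESeq2 1.42.0, limma-voom (limma 3.58.1) with quality weights, other scaling and filters, summed copies, mouse numbers and leaving out each library. The fit was tested on simulated counts with changes planted in the Homo libraries. In Homo against WT it recovered 35.9% of changes of 1.5 fold, 80% of 2 fold and 96.8% of 4 fold. Of its calls, 7.43% were not planted. The planted genes were drawn at random from all tested genes, so these rates do not describe the pump genes in particular.

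Sequences and exon lengths come from GENCODE transcripts of GRCm38, promoters from RefSeq. Every pair of libraries of a genotype differed by more than sampling noise (at least 22.6 chi-square units per degree of freedom). The named genes are the members, the rest of the pump, up to 3 genes of each other list by smallest p, and the 5 or 3 most like or unlike the copies. The members and lists were chosen with earlier results of these data known.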

Additional observations from a re-analysis of the deposited data

Results flagged for a closer look

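Atp6v0c in Het replicate 5 (mouse 19) was at 5.52 CPM, the lowest of the 6 Het livers and apart from the other 5, which lay between 7.21 and 8.20 CPM. The gap to the nearest liver was 0.629 of the Het range, just over Dixon's 95% critical value of 0.625. Of 30 groups of values examined, 10 members in 3 genotypes, this was the one past its critical value, and chance alone marks about 1 group in 20. The same liver had 41 reads of Atp6v0c-ps2 and a pseudogene share of 17.2%, inside the Het range. Without it, the order of the genotypes in Atp6v0c was the same, as the other Het livers lie between all Homo and all WT livers.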

How the results depend on the processing

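No paired analysis was possible because the labels give no replicate number that is shared between genotypes. The counts of called subunit genes and of called lysosomal genes stayed at 0 under every alternative run. For Atp6v0c and Atp6v0c-ps2 no alternative turned a direction. As these rows were chosen for their differences between genotypes, this and the ranges below are a description and support nothing further. Summing the copies moved the Atp6v0c log2 fold changes to -0.66, -0.27 and -0.39 (Homo against WT, then Het against WT, then Homo against Het), and within mice 1 to 7 Atp6v0c-ps2 was at 4.54 in Het against WT, where the WT libraries hold 2, 3 and 1 reads. Leaving out 1 library gave, in the same order, -1.19 to -1.13, -0.53 to -0.43 and -0.74 to -0.63 for Atp6v0c, and 4.33 to 4.83, 3.73 to 4.23 and 0.49 to 0.68 for Atp6v0c-ps2.

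For the 8 other members, 24 log2 fold changes were refitted 696 times. None passed the threshold (lowest adjusted p 0.240) and 46 changed sign, the largest of these being 0.1505 in size; the cause was not tested. In Homo against WT, Atp6v1a was -0.0085 with mouse number as covariate; Atp6v1b2 was 0.0676 with it, 0.0621 without mice 1 to 3 and 0.1505 within mice 8 to 13. Atp6ap2 was 0.0123 without mice 1 to 3 and 0.0203 within mice 8 to 13, where Atp6v0b was -0.0061 and Atp6ap1 -0.0155. In Het against WT, Atp6v1a was -0.0027 and Atp6v1b2 0.0133 with the covariate, Atp6v1b2 0.0384 without mice 1 to 3, and Atp6v0d1 0.0181, Atp6v1a -0.0129 and Atp6ap2 -0.0458 within mice 1 to 7. In Homo against Het, Atp6v1a was -0.0125 by limma-voom, -0.0058 with the covariate and -0.0439 within mice 14 to 20; Atp6v0b was 0.0083 with the covariate and 0.056 within mice 14 to 20, where Atp6v0d1 was 0.099.

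Where leaving out 1 library turned a sign, the ranges in Het against WT were -0.0646 to 0.0059 for Atp6v0d1, -0.0146 to 0.044 for Atp6v1a and -0.0796 to 0.0043 for Atp6v1b2. In Homo against Het they were -0.1251 to 0.0005 for Atp6ap1, -0.1126 to 0.0039 for Atp6v0a1, -0.0553 to 0.0216 for Atp6v0b, -0.0605 to 0.0055 for Atp6v0d1, -0.0394 to 0.0567 for Atp6v1a and -0.0111 to 0.0637 for Atp6v1b2. In Homo against WT they were -0.0317 to 0.0601 for Atp6v0b, -0.0136 to 0.0791 for Atp6v1a and -0.045 to 0.0281 for Atp6v1b2. The depth limits Atp6v0c-ps2 in WT, where a change of 1 read moves its level by a large share.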
